A study of Mus musculus with 2 samples.

Results

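Killer lectin-like receptors and their partners were followed in CD8+ T cells of mice with a T-cell deletion of the transcription factor gene Bcl11b. The genes are Klrb1c, Klrk1, Ncr1, Klrd1, Klrc1, Klre1, Klra7, Klrg1, the adaptor gene Hcst and the transcription factor gene Nfil3. They were found by the gene name, or an older synonym, that the array gives each probe. All 10 genes were present, with 14 probes among the 41174 gene probes of the array, and 4 of the genes had 2 probes each. The other group of CD8+ T cells came from wild-type mice.

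The deficient cells were purified from mice of the genotype Bcl11bF/F/dLck-iCre. There a Cre recombinase under a distal Lck promoter deletes the floxed Bcl11b gene in T cells. Mice of both genotypes were infected with Listeria monocytogenes-OVA, an ovalbumin-expressing strain of the bacterium, and CD8+ T cells were taken at day 6 by negative selection, at a stated purity over 90%. RNA of deficient cells (Cy5) and RNA of wild-type cells (Cy3) shared 1 two-colour Agilent array in each of 2 biological replicates. The dye was the same way round on both arrays, so a dye effect cannot be told apart from an effect of genotype, and both arrays lay on 1 slide.

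Natural killer (NK) cells read target cells through pairs of activating and inhibitory receptors, many of which are C-type lectin-like proteins encoded in a cluster on mouse chromosome 6, the natural killer gene complex. Activating members have short tails and signal through small adaptors such as DAP10 (Hcst) and DAP12 (Tyrobp), while inhibitory members recruit phosphatases through tyrosine motifs of their own. CD8+ T cells can gain several of these receptors after activation, and NKG2D and CD94 are well known on effector cells in infection.

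Promoter sequence is shown for the genes on which the results turn: Klrb1c and Klrk1, the receptor genes that passed the test upward, Klra7, the receptor gene with the lowest ratio, and Ncr1, the receptor gene outside chromosome 6. Each line gives the 250 bases before a RefSeq transcript start (GRCm38, 5′ to 3′ on the strand of the gene), and capitals mark matches to the Runx core TGNGGT, which reads ACCNCA on the other strand. The windows are chr6:128788642-128788891 (Klrb1c), chr6:129623865-129624114 (Klrk1) and chr6:130231688-130231937 (Klra7), all on the minus strand, and chr7:4337465-4337714 (Ncr1) on the plus strand.
Klrb1c: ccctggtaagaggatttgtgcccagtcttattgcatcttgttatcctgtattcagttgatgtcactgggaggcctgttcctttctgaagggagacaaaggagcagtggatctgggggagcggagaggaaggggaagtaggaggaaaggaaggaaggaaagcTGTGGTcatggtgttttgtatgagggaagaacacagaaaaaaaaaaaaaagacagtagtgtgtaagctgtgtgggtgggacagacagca
Klrk1: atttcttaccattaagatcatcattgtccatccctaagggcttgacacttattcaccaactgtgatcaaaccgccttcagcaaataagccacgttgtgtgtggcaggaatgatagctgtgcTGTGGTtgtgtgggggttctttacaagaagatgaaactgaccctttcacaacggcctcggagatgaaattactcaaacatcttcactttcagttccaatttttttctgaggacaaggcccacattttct
Klra7: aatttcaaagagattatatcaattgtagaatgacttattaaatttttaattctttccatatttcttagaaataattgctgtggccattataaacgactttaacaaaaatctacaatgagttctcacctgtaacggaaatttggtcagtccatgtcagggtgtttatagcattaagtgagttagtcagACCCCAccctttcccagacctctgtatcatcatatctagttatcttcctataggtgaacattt
Ncr1: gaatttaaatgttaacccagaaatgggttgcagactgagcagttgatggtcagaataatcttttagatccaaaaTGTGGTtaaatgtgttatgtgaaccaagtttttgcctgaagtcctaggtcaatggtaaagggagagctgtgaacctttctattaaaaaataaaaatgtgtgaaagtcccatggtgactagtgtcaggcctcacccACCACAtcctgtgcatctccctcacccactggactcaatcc
The match lies at -89 from the start in Klrb1c, at -129 in Klrk1 and at -63 in Klra7, while Ncr1 holds 2 matches. Klra7 and Ncr1 each have 2 RefSeq starts, of which 1 is shown. RefSeq windows were found for 8 of the 10 genes (all but Klrd1 and Klrg1), 11 windows in all. A Runx core stood in 8 of the 11 windows (6 of the 8 genes), against 40.1% of 32851 windows of the same length. Runx proteins are transcription factors of CD8+ T and NK cells. The T-box core TCACACC, which becomes GGTGTGA on the other strand and is read by T-bet and Eomes, was in 0 of the 11 windows, against 3.33% of all windows. The D-box TTANGTAA, which becomes TTACNTAA on the other strand and is the element of Nfil3, was also in 0 of the 11, against 2.06%. The letters of the T-box and Runx motifs can overlap. A match is a run of letters and no evidence that a factor binds there.

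Signals are given as net intensity, the mean brightness of the spot minus its local background, in scanner units. A spot counts as measured in a channel where the scanner program marked it as well above background, which held for 26.0% and 31.1% of gene spots in the deficient channel and for 32.4% and 28.9% in the wild-type channel. The 153 negative control spots had median net intensities of 921 and 660 in the deficient channel, against 289 and 369 in the wild-type channel. The negative control spots themselves thus had a raw ratio above 1. Ratios below are log2 of deficient over wild type after normexp and loess normalization, given as mean ± SD over 2 arrays, and the adjusted p is limma's over the 12622 probes in which the same channel passed that mark on each array. Of those probes 345 were higher and 615 lower in deficient cells. The lower share of the calls was 64.1%, and it was 86.1% with median centring in place of loess, 50.7% with each array centred on the tested probes and 37.5% without background correction. The median of all tested probes was -0.17, which median centring moved to -0.40 and centring on the tested probes to -0.01.

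The labelled genotype and cell type were checked before the receptors. Bcl11b was lower in deficient cells, with a ratio of -1.82 ± 1.60 (adjusted p = 0.00987), with -0.69 on replicate 1 and -2.95 on replicate 2. Another Bcl11b probe had -1.09 and -2.03, a mean of -1.56 ± 0.66 (adjusted p = 0.0144), and was above background in wild-type cells only. Of 17 tested T-cell genes other than Bcl11b 0 were higher and 7 lower in deficient cells, with a median of -1.17 (Tcra at -2.84 and Cd6 at -2.56). Markers of other cells moved with the genotype. All 17 tested monocyte and macrophage markers were higher in deficient cells, with a median of 3.01 (Apoe at 3.91, C1qc at 3.49). Their summed normalized level was 293009 and 233057 in deficient cells, against 37427 and 24806 in wild-type cells. Also higher were 3 of 8 B-cell markers (median 1.06; Ms4a1 at 1.94, Cd79b at 1.59), 3 of 9 neutrophil markers (1.12; S100a9 at 2.79, S100a8 at 2.46), 4 of 7 dendritic cell markers (1.72; Cd83 at 2.00, Itgax at 2.00) and 4 of 5 erythroid markers (1.40; Hbb-bt at 2.06, Slc4a1 at 1.48). On replicates 1 and 2 the medians were 2.92 and 3.03 for macrophage markers and 1.00 and 1.38 for neutrophil markers. They differed more for B-cell (0.29 and 1.73), dendritic cell (1.05 and 2.09) and erythroid markers (0.70 and 2.10). Markers never above background numbered 0 for macrophages, 1 for B cells, 2 for neutrophils, 1 for dendritic cells and 3 for erythroid cells. In bulk RNA, more cells of a type and more RNA per cell cannot be told apart, and the part of these other cells in the results below was not tested.

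Of the 14 receptor and adaptor probes 7 were tested, each for a different gene, and 2 were called, Klrb1c and Klrk1, both higher in deficient cells. Among all tested probes 7.61% were called, 2.73% higher and 4.87% lower. At an unadjusted p under 0.05 the count was 4, with Nfil3 (higher) and Klra7 (lower) added, beside 22.6% of all tested probes. In the other 7 probes no channel passed on both arrays, and 5 of them were well above background in none. The median of the 7 tested ratios was 0.64. On both arrays 4 of them lay above 0 and 1, Klra7, below 0, while Klrd1 and Hcst changed sign between the arrays. In Klrb1c, Ncr1 and Nfil3 only the deficient channel passed on both arrays, and in Klra7 only the wild-type channel. Such a filter favours a ratio toward the channel that passed, so the sign counts and the median are in part set by it. Over all tested probes 73.7% had the same sign on both arrays.

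**Figure D1:**
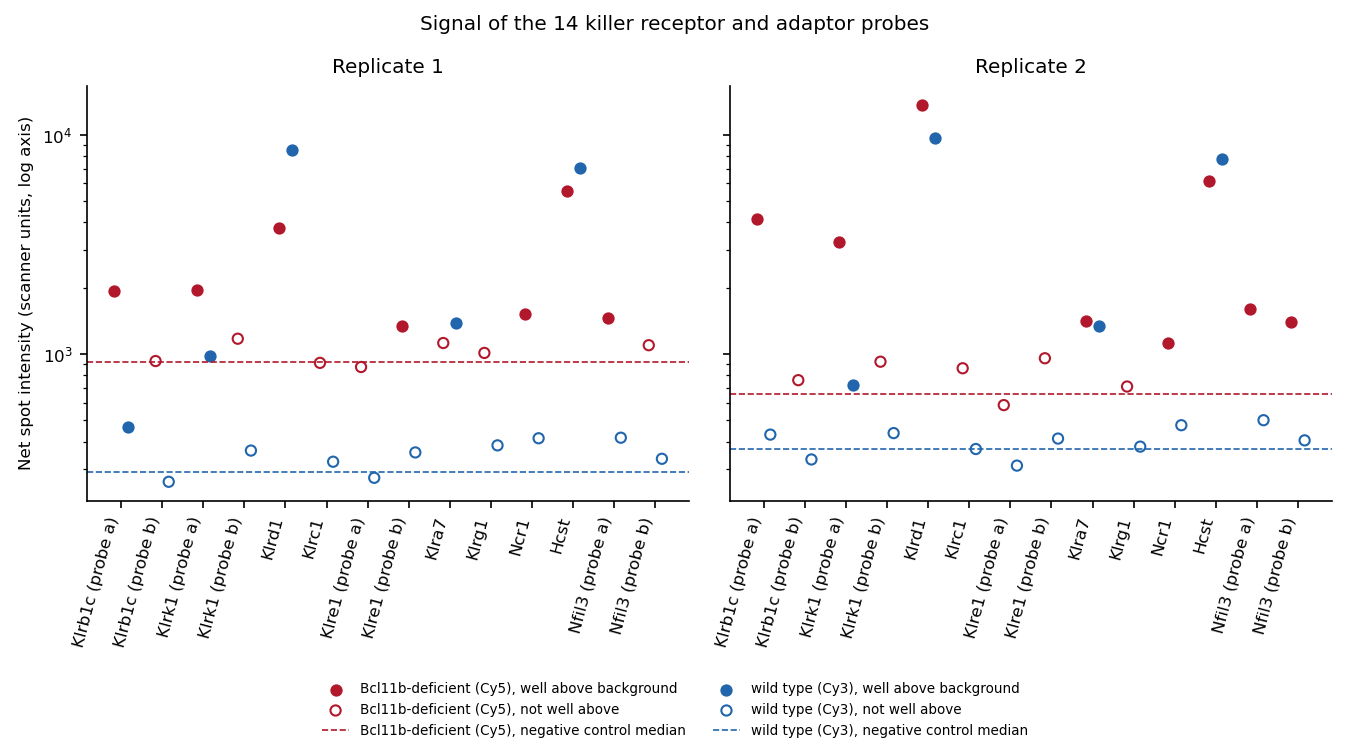
Net spot intensity (vertical, log axis, scanner units) of each of the 14 probes on replicate 1 and replicate 2, with deficient cells (red, Cy5) left of wild-type cells (blue, Cy3). Filled points were well above background, open points were not, and dashed lines are the medians of the negative control spots (921 and 660 in the deficient channel, 289 and 369 in the wild-type channel); Klrk1 (probe a), Klrd1 and Hcst are the probes filled in both colours on both replicates, and Klrb1c and Klrk1 (probe a) stand further above the dashed line in deficient cells on replicate 2 than on replicate 1.

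Klrb1c encodes NK1.1, the activating NKR-P1C receptor that marks NK cells in some mouse strains. Its first probe (NM_008527, chromosome 6, 128744204 to 128744263, minus strand, build mm8) had net intensities of 1951 and 4140 in deficient cells, against 467 and 430 in wild-type cells. Both deficient values were well above background, and of the wild-type values only that of replicate 1 was. Deficient signal was the higher on both arrays, as it also was in the negative control spots. The log2 ratio was 1.48 on replicate 1 and 3.29 on replicate 2, a mean of 2.38 ± 1.28 (adjusted p = 0.00054). On replicate 2 the wild-type signal of 430 lay under the 95th percentile of the negative control spots (449), so the size of that ratio rests on a level that was not measured. Deficient signal was 2.12 times the negative control median on replicate 1 and 6.27 times on replicate 2. The call was lost under 6 of 13 other settings, in which the ratio ran from 1.72 to 3.57.

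The second Klrb1c probe (128750371 to 128750430) was not well above background in any channel. It had 931 and 762 in deficient cells, against 262 and 331 in wild-type cells, and ratios of 0.44 and 0.64. These deficient signals are 1.01 and 1.15 times the negative control median. The higher Klrb1c signal thus rests on 1 of 2 probes, and the second could not be tested.

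Klrk1 encodes NKG2D, an activating receptor for stress-induced ligands such as Rae-1 that costimulates CD8+ T cells through DAP10. Its first probe (chromosome 6, listed from 129578157 to 129578446) had 1968 and 3230 in deficient cells, against 982 and 722 in wild-type cells, and all 4 values were well above background. Deficient cells were the higher ones on both arrays, as they also were in the negative control spots. Deficient signal was 2.14 and 4.89 times its negative control median, and wild-type signal 3.39 and 1.96 times, so the order on that scale differed between the arrays. The ratio was 0.80 on replicate 1 and 1.81 on replicate 2, a mean of 1.30 ± 0.72 or 2.47-fold (adjusted p = 0.0423). It passed under 5 of 14 other settings, and ran from 0.80 to 1.64 over them, always above 0.

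The other Klrk1 probe (NM_033078, 129577539 to 129577598) was not well above background in any channel, with 1177 and 924 in deficient cells, against 364 and 437 in wild-type cells. Its ratios of 0.13 and 0.30 were not tested. As with Klrb1c, a single probe carries the Klrk1 result.

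Ncr1 encodes NKp46, an activating receptor of the immunoglobulin superfamily that is a defining marker of NK cells. Its probe (NM_010746, chromosome 7, 3947661 to 3947720, plus strand) had 1531 and 1126 in deficient cells, against 414 and 475 in wild-type cells. Only the deficient signals were well above background, on both arrays. For such a probe the wild-type level is only bounded, and the fold is given with a floor on that level, called the bound. Each array contributes to the wild-type mean the probe's own signal or, if larger, the lowest signal marked as well above background. The deficient mean is divided by that mean, after loess and Aquantile normalization. That bound gave 1.52-fold for Ncr1 in deficient cells, close to the fitted 1.56-fold. It makes no allowance for the spread between arrays or settings, and is no lower limit on the fold. The ratio of replicate 2 and the lowest ratio under other settings (0.38 on the log2 scale) lay below it. The ratio was 0.73 and 0.55, a mean of 0.64 ± 0.13, and did not pass (adjusted p = 0.346). From the net signals alone it was 1.89 and 1.25, so normexp and loess together took off 1.16 and 0.70 at this dim intensity.

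Klrd1 encodes CD94, the partner that pairs with NKG2 chains to bind the class Ib molecule Qa-1. Its probe (NM_010654, chromosome 6, 129564066 to 129564125, plus strand) had 3776 and 13694 in deficient cells, against 8552 and 9709 in wild-type cells. All 4 values were well above background, and the deficient value was the lower on replicate 1 and the higher on replicate 2. The ratio after normalization was -0.61 and 0.04, a mean of -0.28 ± 0.46 with a standard error of 0.40 from the fit, and did not pass (adjusted p = 0.695). Deficient signal was 4.10 and 20.7 times its negative control median, and wild-type signal 29.5 and 26.3 times.

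Klrc1 encodes NKG2A, the inhibitory partner of CD94. Its probe (NM_010652, listed over 1806 bases from 129641066 to 129642871) had 913 and 863 in deficient cells, against 324 and 370 in wild-type cells, with no channel above background and ratios of -0.36 and 0.60. A probe named Klrc3 that also lists the accession of Klrc1 gave -0.72 and 0.89, likewise not well above background in any channel. NKG2A could therefore not be compared at this signal, while its partner CD94 was measured in all 4 channels.

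Klre1 encodes a lectin-like receptor that pairs with KLRI chains. One of its probes (NM_153590, listed from 129545756 to 129547699) had 1343 and 958 in deficient cells, against 357 and 413 in wild-type cells, and was above background in deficient cells on replicate 1 only. Its ratios were 0.57 and 0.54 and were not tested. The other probe (AK041224, 129550654 to 129550713) had 874 and 586 in deficient cells, against 273 and 311 in wild-type cells, ratios of 0.07 and 0.09 and no channel above background.

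Klra7 encodes Ly49G2, an inhibitory receptor for class I molecules of the major histocompatibility complex. Its probe (NM_014194, listed from 130184472 to 130184625, minus strand) had 1125 and 1424 in deficient cells, against 1383 and 1348 in wild-type cells. Deficient RNA was well above background on replicate 2 only, and wild-type RNA on both arrays. After normalization the ratio was -1.60 and -0.77, a mean of -1.18 ± 0.59, and did not pass (adjusted p = 0.0645). From the net signals alone it was -0.30 and 0.08, and normexp and loess together moved it by -1.30 and -0.85. Deficient signal was 1.22 and 2.16 times its negative control median, and wild-type signal 4.78 and 3.66 times. With 1 probe for each gene the same ratio passed (adjusted p = 0.0496).

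Klrg1 encodes an inhibitory receptor for cadherins that marks short-lived effector CD8+ T cells. Its probe (NM_016970, 122236571 to 122236630) had 1014 and 712 in deficient cells, against 384 and 379 in wild-type cells, and no channel was well above background. The ratios of -0.48 and 0.02 were not tested. Klrg1 was thus not detectable above background with this probe in either genotype.

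Hcst encodes DAP10, through which NKG2D signals. Its probe (NM_011827, chromosome 7, 30126581 to 30126881, minus strand) had 5549 and 6127 in deficient cells, against 7068 and 7740 in wild-type cells. All 4 values were well above background, and the deficient ones were lower on both arrays. Before normalization the ratio was -0.35 and -0.34. Normexp and loess together moved it by 0.69 on replicate 1 and by -0.52 on replicate 2, to 0.34 and -0.86. The mean was -0.26 ± 0.85 and did not pass (adjusted p = 0.724). The adaptor thus showed no called difference while its receptor Klrk1 passed; whether the ratios of the 2 genes differ was not tested.

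Nfil3 encodes E4BP4, a basic leucine zipper factor required in mice for NK-cell development. Its first probe (NM_017373, chromosome 13, 52979648 to 52979707, minus strand) had 1455 and 1611 in deficient cells, against 416 and 500 in wild-type cells. Only deficient RNA was well above background, on both arrays. The bound used for Ncr1 gave 1.81-fold here, close to the fitted 1.83-fold, with no allowance for the spread between arrays. The ratio of replicate 1 lay below it. Deficient signal was 1.58 and 2.44 times its negative control median, and wild-type signal 1.44 and 1.36 times. The ratio was 0.54 and 1.20, a mean of 0.87 ± 0.47, and did not pass (adjusted p = 0.184). The second probe (52979932 to 52979991) had 1099 and 1401 in deficient cells, against 334 and 405 in wild-type cells, with ratios of 0.15 and 1.39. It was above background in deficient cells on replicate 2 only and was not tested. Both Nfil3 probes were above 0 on each array.

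**Figure D2:**
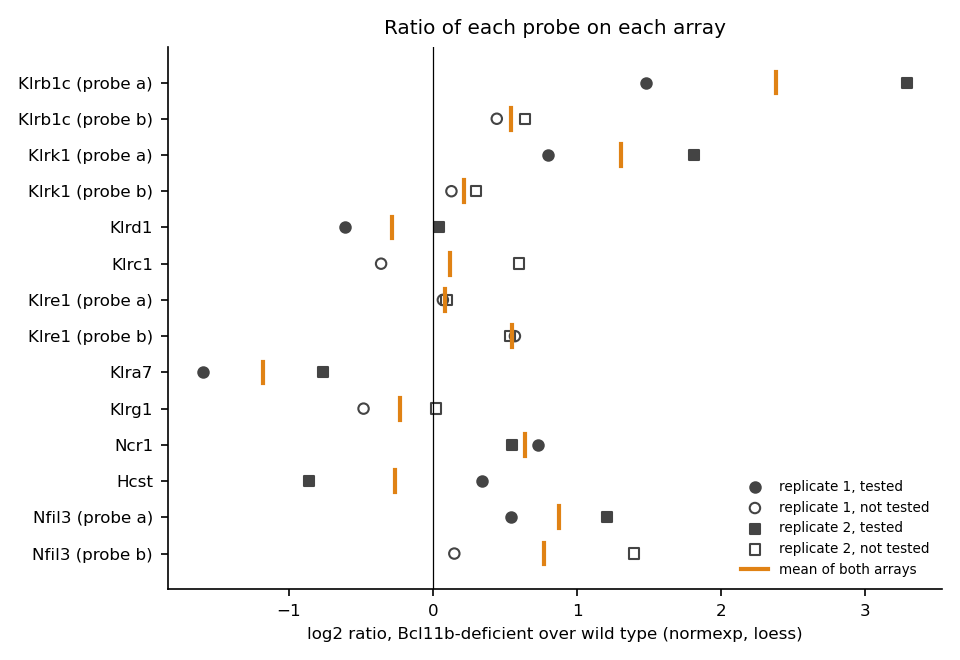
Normalized log2 ratio, deficient over wild type, of each probe on replicate 1 (circles) and replicate 2 (squares), with the mean as an orange bar; filled symbols are tested probes and open symbols are not. Klrb1c (1.48 and 3.29) and Klrk1 (0.80 and 1.81) lie furthest to the right, Klra7 (-1.60 and -0.77) furthest to the left, and Klrd1 and Hcst lie on both sides of 0.

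The sizes of the ratios differed between the arrays. Of the 7 tested probes 5 had the higher ratio on replicate 2. The ratios of all tested probes had an SD of 0.97 on replicate 1 and 0.63 on replicate 2. With 1 residual degree of freedom per probe, the fit drew its error mainly from all probes together, and the smallest absolute mean that it called was 1.23 on the log2 scale. Klrk1 lies just above that value and Klra7 just below it.

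**Figure D3:**
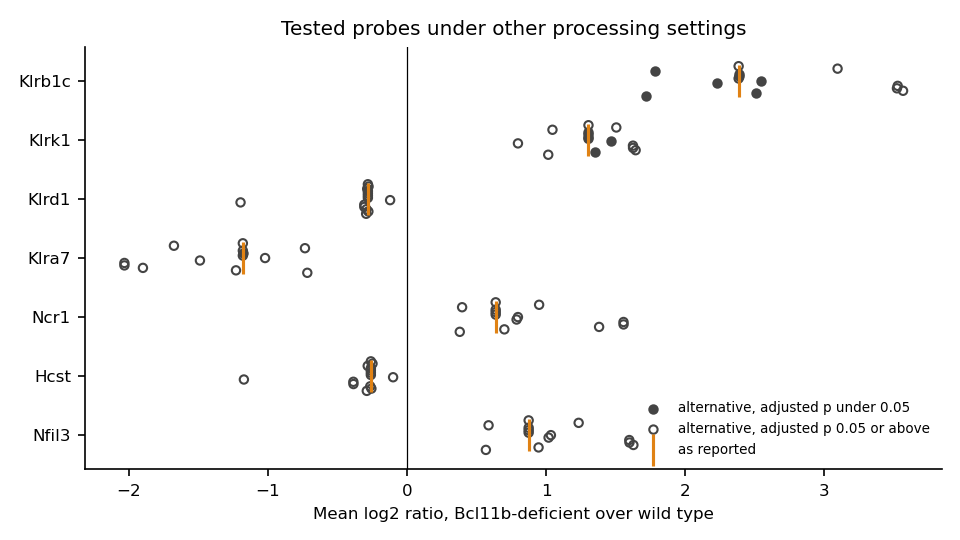
Mean log2 ratio, deficient over wild type, of the 7 tested probes as reported (orange bar) and under up to 14 other settings (points; filled where the adjusted p was under 0.05). No probe changed sign; Klrb1c ran from 1.72 to 3.57, Klrk1 from 0.80 to 1.64 and Klra7 from -2.03 to -0.72.

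Most other killer receptor genes were too dim to compare. The array holds 36 further Klr probes for 26 genes, of which 26 probes were never above background, 5 were tested and 0 were called (limma), with 1 higher and 2 lower at an unadjusted p under 0.05. Klrc2, the activating NKG2C chain that also pairs with CD94, was the only one above background in all 4 channels. It had 1475 and 2427 in deficient cells, against 558 and 548 in wild-type cells. Its ratio was 0.29 and 1.83, a mean of 1.06 that did not pass (adjusted p = 0.118). Klrb1a, a relative of Klrb1c, was above background in deficient cells on replicate 2 only, with ratios of 0.19 and 1.56.

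The Ly49 family, to which Klra7 belongs, had 23 further probes for 18 genes, and 15 of them were never above background. Of the 4 that were tested, 3 lay below 0 on both arrays, as Klra7 did, beside 43.1% of all tested probes (30.5% lay above 0 on both). In these 3, as in Klra7, only the wild-type channel passed on both arrays, and such a filter favours a ratio below 0. Before normalization the net signal of these 3 was the higher in deficient cells on both arrays. Klra23 had 1115 and 1239 in deficient cells, against 1048 and 963 in wild-type cells, with a mean ratio of -0.99 (adjusted p = 0.130). Its probe lists the accession of Klra7 among its targets, so the 2 probes may read the same transcripts. Klra16 had 1165 and 1107 in deficient cells, against 944 and 888 in wild-type cells, with a mean ratio of -0.91 (adjusted p = 0.164). The pseudogene Klra13-ps had a mean ratio of -0.67 (adjusted p = 0.320) and was above background in wild-type cells only. Its net signal was 1125 and 888 in deficient cells, against 564 and 588 in wild-type cells, so the sign came with normalization. The bound used for Ncr1 gave 1.45-fold toward wild-type cells, with no allowance for the spread between arrays. Klra2 was above background in deficient cells only, with a mean ratio of 0.50 (adjusted p = 0.468). Ly49 genes are near-identical copies and differ in number between mouse strains, so the assignment of each of these signals, Klra7 included, to a single gene is uncertain. Another Klra16 probe, at 0.09 on the ratio scale, was never above background.

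**Figure D4:**
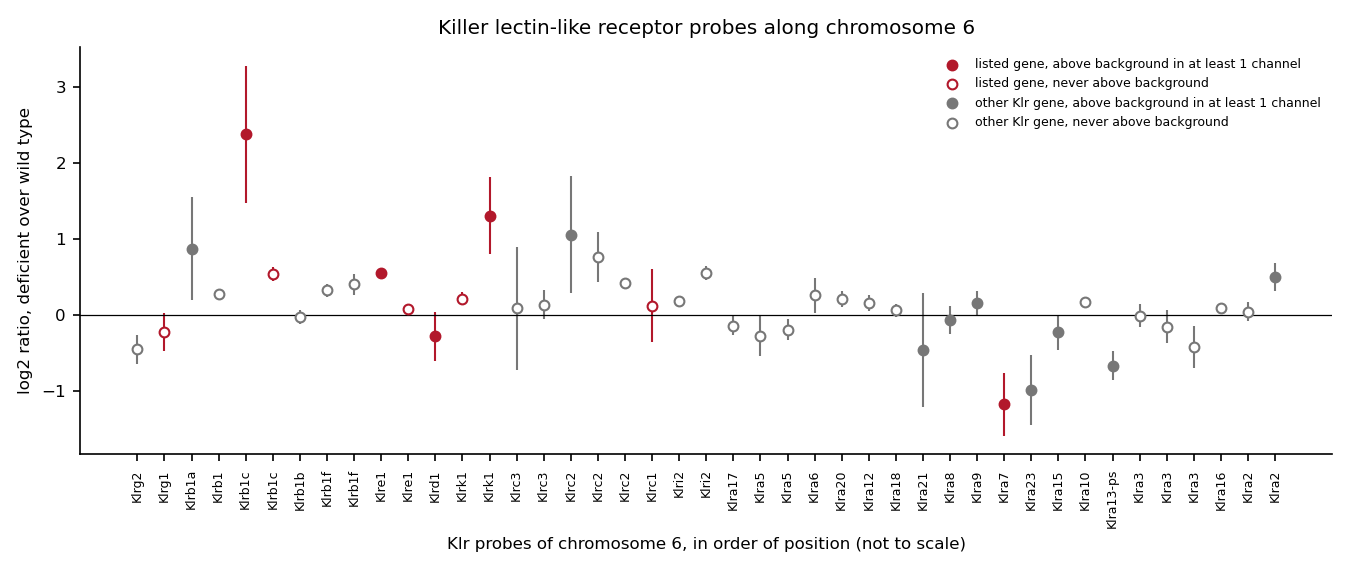
Log2 ratio, deficient over wild type, of the Klr probes placed on chromosome 6 in order of position (horizontal axis, not to scale); points are means, lines join replicates 1 and 2, red marks the 7 listed genes on this chromosome and grey the other Klr genes, and open points were never above background. Filled points with the highest means are Klrb1c, Klrk1 and Klrc2, and those with the lowest are Klra7 and Klra23.

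Other C-type lectins encoded in or near the natural killer gene complex gave calls in 1 direction. Of 11 tested genes 3 were called higher and 0 lower, with a median of 0.38 (1 was lower at an unadjusted p under 0.05). The higher ones were Clec4n (2.11, adjusted p = 0.0015), which encodes Dectin-2, Clec4a2 (1.84, adjusted p = 0.00362), which encodes the myeloid receptor DCIR, and Clec1b (1.69, adjusted p = 0.0076), which encodes CLEC-2. Clec4b1 was at 1.24 (adjusted p = 0.0505). On chromosome 6 the probes of Clec4n, Clec4a2 and Clec4b1 start at 123210181, 123106277 and 123037055, apart from that of Clec1b at 129370890. All of these genes are known from myeloid cells or platelets rather than T cells, and they stand beside the macrophage markers above.

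Signalling genes downstream of the receptors split by direction. Of 23 tested genes 4 were higher and 3 lower in deficient cells, with a median of 0.28. The higher ones were Fcer1g (3.41 ± 0.20, adjusted p = 2.5e-06) and Tyrobp (2.82 ± 0.25, adjusted p = 2.1e-05), the adaptors FcR gamma and DAP12 of activating receptors, the kinase gene Lyn (1.84, adjusted p = 0.00449) and the phospholipase gene Plcg2 (1.68). The lower ones were Plcg1 (-1.91, adjusted p = 0.00261), the T-cell phospholipase, Sh2d1a (-1.36), the adaptor SAP, and Cd247 (-1.29), the CD3 zeta chain. Plcg2, Sh2d1a and Cd247 were chosen after their values were seen. Fcer1g, Tyrobp and Lyn are also abundant in macrophages.

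Ligands of the receptors gave a single call. Of 8 tested genes 1 was higher and 0 lower, with a median of 0.01. The higher one was Cfp (3.36, adjusted p = 2.9e-06), which encodes properdin, a ligand of NKp46 that myeloid cells make. H2-K1, a class I gene, was at 0.26, and Clec2d and Clec2g, whose products are lectin-like ligands of NKR-P1 receptors, were at -0.25 and -0.20; none of the 3 passed.

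Of 21 tested other receptors of NK and cytotoxic T cells 2 were higher and 3 lower, with a median of -0.08. Fcgr3, the Fc receptor CD16 (1.59, adjusted p = 0.0187), and Cd7 (1.30, chosen after its value was seen) were higher. The chemokine receptor gene Cxcr6 (-1.48, adjusted p = 0.0203), the SLAM receptor gene Slamf6 (-1.47, adjusted p = 0.0334) and Cd96, a receptor for nectin-type ligands (-1.35, adjusted p = 0.033), were lower in deficient cells.

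Transcription factors of NK and innate-like lymphocytes had 0 higher and 2 lower among 19 tested genes, with a median of -0.23 (3 were higher at an unadjusted p under 0.05). Ets1, an Ets factor of T and NK cells, was at -1.83 (adjusted p = 0.00459), and Tox, a nuclear factor needed for NK-cell and CD4+ T-cell development, at -1.68 (adjusted p = 0.00888). Tox was above background in wild-type cells only. After normalization the bound used for Ncr1 gave 1.65-fold toward wild-type cells, with no allowance for the spread between arrays. The net signal of Tox was 844 and 773 in deficient cells, against 573 and 706 in wild-type cells, so the sign came with normalization. Maf at 1.16 (adjusted p = 0.071) and Id3 at -0.91 (adjusted p = 0.158) did not pass. Nfil3 belongs by its DNA element to the clock circuit, of which 6 genes were tested and 0 called by limma, also 0 at an unadjusted p under 0.05. Dbp, the activator of the D-box, was at -0.72, Nr1d2 at -0.54, Bhlhe41 at 0.41 and Per1 at -0.31, with a median of -0.27.

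Of 10 tested NK-cell markers outside the 10 genes 2 were called higher, Fcer1g and Tyrobp, and 0 lower, with a median of 0.63. The summed normalized level of these markers was 55632 and 43869 in deficient cells, against 18171 and 14943 in wild-type cells, and 4 of the 15 on the array were never above background. Without Fcer1g and Tyrobp, which macrophages also make, the other 8 had 0 calls, a median of 0.13 and sums of 15464 and 18134 in deficient cells, against 13685 and 12139 in wild-type cells. Of these 8, 4 lay below 0 on both arrays (Prf1 at -0.64, Txk at -0.59, Gzma at -0.23 and Adamts14 at -0.20). Another 3 lay above 0 on both (Ncam1 at 0.96, Il2rb at 0.89 and Eomes at 0.81). None of these genes passed, and they were named after their values were seen. Those above 0, but not those below, had an unadjusted p under 0.05 in limma. Of the CD4, NKT and gamma-delta T-cell markers 1 was tested, Cd4, at 0.30.

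**Figure D5:**
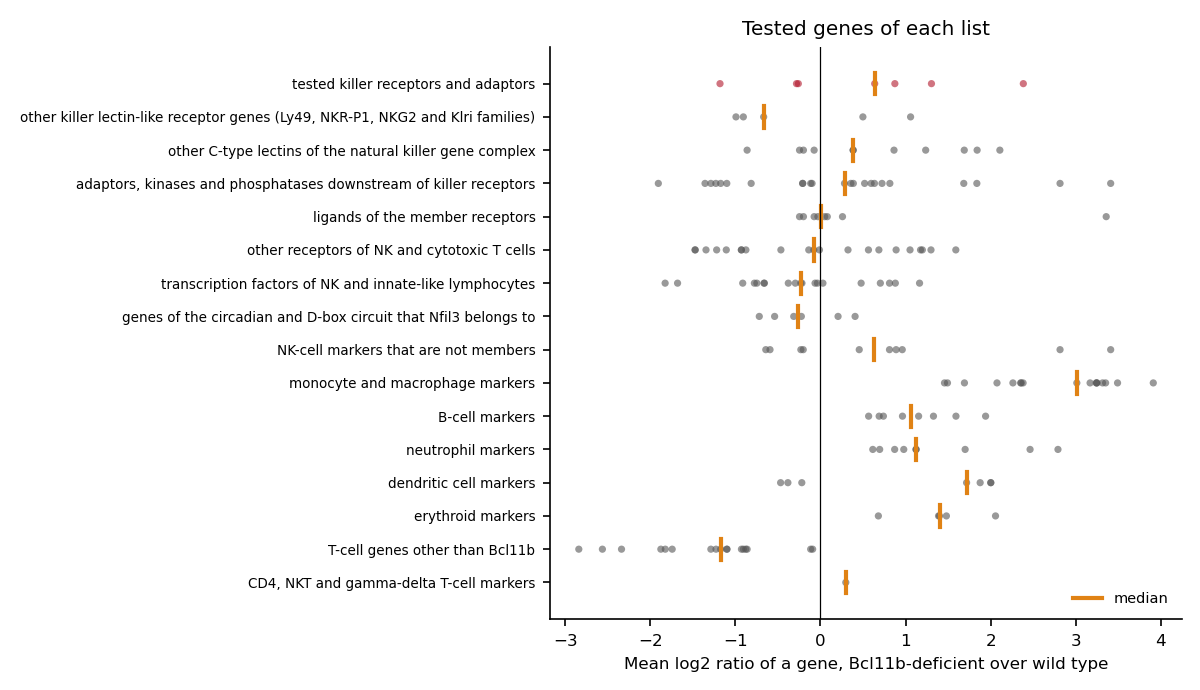
Mean log2 ratio, deficient over wild type, of each tested gene (points) in each list, with the list median as an orange bar; the 7 tested receptor and adaptor probes are in red at the top. The red median of 0.64 lies near that of the NK-cell markers (0.63, or 0.13 without Fcer1g and Tyrobp), below the macrophage markers (3.01) and above the T-cell genes (-1.17).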

How the data were processed

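The arrays were read with Agilent Feature Extraction 9.5.3.1, per the submitters' processing notes. Per the file headers, each spot has an intensity in both colours, as its mean brightness and the median of the local background. Per the file headers, the same program wrote flags, such as well above background, a background-subtracted intensity and a dye-normalized log10 ratio of Cy5 to Cy3. The deposited table of values repeats this log10 ratio, within 0.00500 (replicate 1) and 0.00493 (replicate 2) of the scanner files, with deficient over wild type as its direction.

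From the deposited intensities, background was corrected by normexp (offset 50) and ratios were put through loess array by array (weight 0 for control spots); flagged spots (255 and 195) were left out and spots of 1 probe averaged. Probes with the same channel well above background on both arrays were tested two-sided by lmFit and eBayes of limma 3.58.1 (R 4.3.3), with Benjamini-Hochberg adjustment over 12622 probes and a threshold of 0.05. The statmod (1.5.0) and data.table (1.17.8) packages and Python 3.11.15 served the rest. The limma step was also run on simulated ratios of equal spread in all probes. These held no dye, intensity or filter effect, so the run cannot speak for such effects. With 2 arrays, 1 residual degree of freedom is left, and the number of arrays limits the precision. Replicates are labelled biological, and whether animals were pooled is not given in the sources used here.

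Names came from RefSeq (GRCm38.p6) through accession (24375 probes), symbol (6301) or synonym (2426), and 8072 probes kept the array's name. Coordinates of probes were taken from the array files (mm8, also called NCBI36), and exons were not assigned because no genome of mm8 was used here. Promoter windows come from RefSeq, GRCm38.p6.

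Named were all probes of the 10 genes, Bcl11b, and of each list up to 4 genes (2 for cell type lists) ranked by the absolute mean log2 ratio of tested probes, largest first. The genes, lists and tests were chosen with earlier results of these data known. In lists, a single probe stands for a gene. Alternatives changed the background correction, normalization, filter, probe rule and variance model, and are given in the closing section.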

Additional observations from a re-analysis of the deposited data

How the results depend on the processing

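Over the 14 other settings no tested receptor or adaptor probe changed sign. Klrb1c was called under 7 of 13 settings in which it could be tested, and was not called with the Feature Extraction fitted background (3.57, adjusted p = 0.486), the Feature Extraction ratio (3.52, 0.125), the deposited table (3.53, 0.125), no filter on dim signal (2.38, 0.277) or separate channels (2.38, 0.177), nor with the negative control median subtracted (3.096, 0.356). Klrk1 was called under 5 of 14 and was not called without background correction (1.02, adjusted p = 0.0686), with the fitted background (1.64, 0.486), the Feature Extraction ratio (1.62, 0.218), the deposited table (1.62, 0.218), median centring (0.80, 0.405), no filter (1.30, 0.277), plain background subtraction (1.05, 0.051), the negative control median subtracted (1.504, 0.365) or separate channels (1.30, 0.244). Klra7 passed only with 1 probe per gene (-1.18, adjusted p = 0.0496). Klrd1 (-1.20 to -0.12), Ncr1 (0.38 to 1.56), Hcst (-1.17 to -0.10) and Nfil3 (0.57 to 1.63) passed under none. Plain subtraction and the negative control median were chosen after seeing the data. The 960 calls over all probes became 443 without background correction, 512 with median centring and 554 with plain subtraction, and the 2 receptor calls became 1 in each of these and with a filter on both channels. They became 0 calls in all and 0 receptor calls with the fitted background (732 probes at an unadjusted p under 0.05 in limma), the Feature Extraction ratio and the deposited table (2511 each), no filter (7409), the negative control median (1714) and separate channels (2295). Without the filter more probes (41171) were tested. The cause of the lost calls was not tested in any setting. With 1 array left out no error can be estimated, and Klrb1c ran from 1.48 to 3.29, Klrk1 from 0.80 to 1.81 and Klra7 from -1.60 to -0.77. Each array holds both genotypes of 1 replicate, so the reported test of the ratio is already paired, and no further pairing was made. Signal near the negative control level limits the comparison of Klrc1, Klre1 and Klrg1.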
